A study of Mus musculus with 6 samples.

Results

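Sinusoidal endothelial cell markers were examined in liver RNA of mice with intact or hepatocyte-deleted Mettl3, the gene for the catalytic subunit of the enzyme that writes N6-methyladenosine (m6A) on mRNA. The set holds 10 genes (Stab2, Clec4g, Lyve1, Fcgr2b, Pecam1, Cdh5, Kdr, Bmp2, Dnase1l3 and Oit3), found by symbol among the 54086 features of the deposited expression table. All 10 passed the filter of a mean of at least 1 FPKM, which left 11086 features for testing. The FPKM are the authors' fragment counts per gene length, scaled between libraries by a factor other than total reads, given with the processing below. The control group was Mettl3 flox/flox (n = 3) with the allele floxed for Cre-driven deletion, and the other group was Mettl3-HKO, a hepatocyte-specific knockout (n = 3). All mice were 8 weeks old and fed normal chow. The sources used here do not give the Cre driver, the strain or the sex. Gene-level Mettl3 read 1.88, 2.17 and 1.98 FPKM in the flox/flox libraries and 2.45, 2.14 and 2.06 FPKM in those labelled HKO (log2 difference 0.09, adjusted p = 0.582 by limma). Other liver cells keep the gene and the deleted exons are not named, so these values do not check the labels. The labels do not tie each library to its own mouse, so a p-value here speaks only of the spread among 6 libraries, which may be technical.

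Liver sinusoids are lined by a fenestrated endothelium without a continuous basement membrane, through which plasma reaches the hepatocytes. These cells are known for clearing hyaluronan, modified proteins and small immune complexes from blood by receptor-mediated endocytosis, and for secreting ligands that instruct neighbouring hepatocytes. The name of the HKO group places the deletion in hepatocytes, not in this endothelium.

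Before the results, 1 library must be described, since it touches each of them. In flox/flox replicate 2 all 10 genes had their lowest value of the 6 libraries, whereas 17.6% of all tested genes were lowest there. The mean of flox/flox replicates 1 and 3 exceeded replicate 2 by 2.09-fold in Stab2 to 4.28-fold in Cdh5, with a median of 2.93-fold over the 10 genes against 1.02-fold over all tested genes. All 10 stood at or below 0.5 of that mean, as did 5.38% of tested genes. Differences of the 10 genes between the genotypes are therefore given with and without flox/flox replicate 2. The genes and the attention to that library were chosen with these values known, so the shares are a description. In RNA of bulk tissue, fewer cells of a type and less RNA per cell cannot be told apart.

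Promoters of 2 receptor genes, Stab2 and Clec4g, are shown as the reference sequence behind the pair of members known best for marking this endothelium. They come from RefSeq (GRCm38.p6), run from 250 bases before to 50 bases after the gene's start, and are written 5′ to 3′ on the gene's strand. Stab2 is at chr10:87007893-87008192, minus strand, and Clec4g at chr8:3720602-3720901, minus strand. Capitals mark AGGAAG, a core of binding sequences of ETS factors, which are known regulators of endothelial genes, or its reverse complement CTTCCT.
Stab2: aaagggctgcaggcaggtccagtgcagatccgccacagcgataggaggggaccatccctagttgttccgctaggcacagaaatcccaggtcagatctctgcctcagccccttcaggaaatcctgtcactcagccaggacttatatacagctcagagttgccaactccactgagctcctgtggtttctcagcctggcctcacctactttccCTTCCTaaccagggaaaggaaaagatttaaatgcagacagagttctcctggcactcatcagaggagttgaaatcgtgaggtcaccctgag
Clec4g: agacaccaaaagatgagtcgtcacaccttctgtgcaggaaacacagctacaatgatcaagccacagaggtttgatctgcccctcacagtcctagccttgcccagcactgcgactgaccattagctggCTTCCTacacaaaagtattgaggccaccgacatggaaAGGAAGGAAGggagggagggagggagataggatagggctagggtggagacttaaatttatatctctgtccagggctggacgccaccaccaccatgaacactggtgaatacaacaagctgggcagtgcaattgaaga
Stab2 held 1 match and Clec4g 3, of which a pair overlapped. Of the 10 genes 4 were matched in the promoter table, and Fcgr2b and Kdr held no AGGAAG in this window. Of all 32851 RefSeq promoters, 35.4% held the motif on either strand. A second motif, AGATAA, of GATA factors, was in none of the 4 and in 11.2% of all promoters.

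No member passed the test between the genotypes. With limma on log2(FPKM + 1) and Benjamini-Hochberg adjustment over all 11086 genes, 0 of 10 were called at adjusted p under 0.05, against 12.8% of all tested genes (5.95% higher and 6.86% lower in HKO). At an unadjusted p under 0.05 there was 1 of 10, Cdh5, against 33.8% of tested genes. Voom, a weighted limma fit on the whole reads rebuilt from the FPKM, also called 0 of 10, against 14.2% of tested genes. Fold changes are HKO minus flox/flox on the log2(FPKM + 1) scale, which understates changes of low genes. Over the 10 genes they ran from -0.13 to 1.06 with a median of 0.27, beside a median of -0.06 over all tested genes. Under the deposited scaling 8 of 10 fold changes were above 0 with all 6 libraries and 3 of 10 without flox/flox replicate 2, with a median of -0.13. Rescaled to equal library totals, 8 of 10 were above 0 without that library, with a median of 0.26 beside 0.29 over all tested genes. Without that library limma again called 0 of 10, against 3.32% of all tested genes, and 1 of the 10, Cdh5 again, had an unadjusted p under 0.05, against 29.5%.

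**Figure D1:**
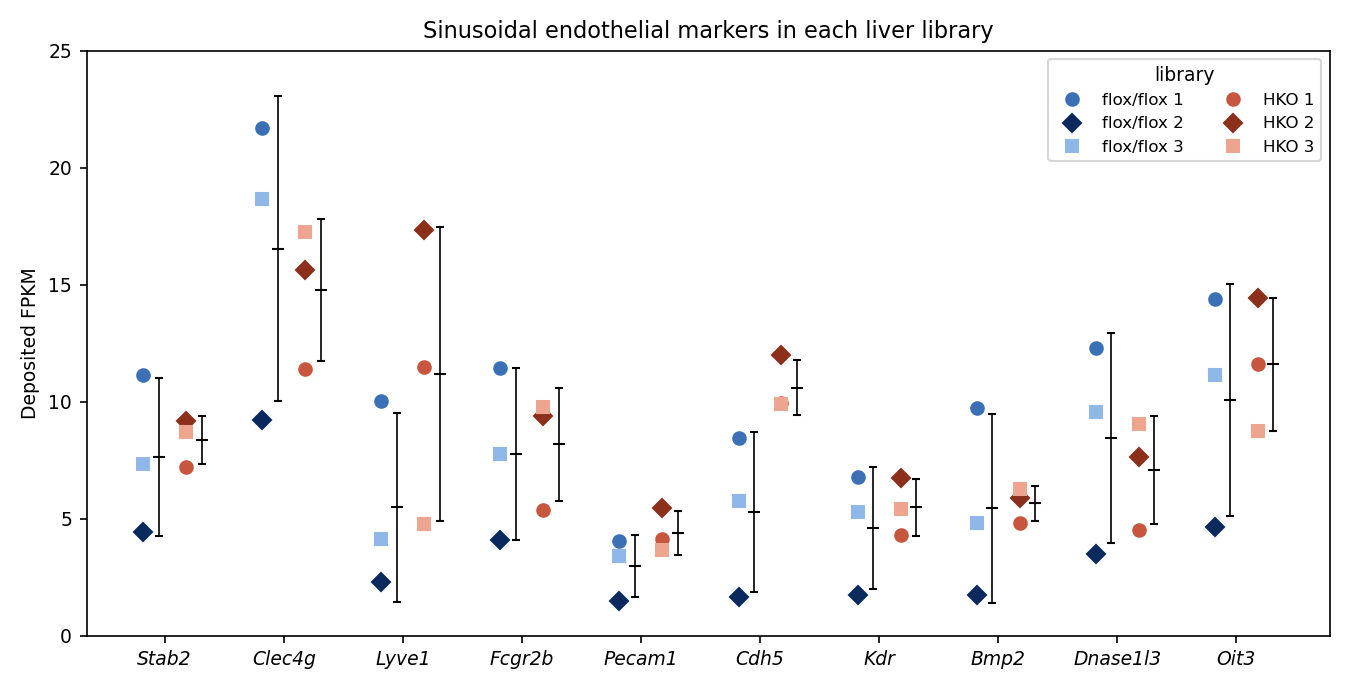
Deposited FPKM (y axis) of the 10 sinusoidal endothelial genes in the 6 libraries, with blue symbols for flox/flox and red for HKO. Black bars give mean ± SD of each group (n = 3). Flox/flox replicate 2 (dark blue diamonds) is the lowest point for every gene, from 1.496 FPKM in Pecam1 to 9.21 FPKM in Clec4g.

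Scavenger and lectin receptors come first. Stab2 (chromosome 10, 86841198 to 87008025, minus strand, GRCm38.p6 as are all positions here) encodes stabilin-2, the endocytic receptor for hyaluronan. In flox/flox libraries (always in the order of replicates 1 to 3) it read 11.1, 4.42 and 7.33 FPKM, and HKO libraries gave 7.22, 9.18 and 8.69 FPKM. The HKO values lay inside the flox/flox range. HKO minus flox/flox came to 0.19 on the log2 scale (95% interval -0.48 to 0.86, SE 0.28, adjusted p = 0.680 by limma) and -0.11 without flox/flox replicate 2 (95% interval -0.60 to 0.38).

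Clec4g (chromosome 8, 3707064 to 3720651, minus strand) encodes a C-type lectin of sinusoidal endothelium. It was the most abundant of the 10, at 21.7, 9.21 and 18.7 FPKM in flox/flox and 11.4, 15.6 and 17.3 FPKM in HKO libraries. Again the HKO values lay inside the flox/flox range, but all of them were below flox/flox replicates 1 and 3. Its log2 difference was -0.09 (95% interval -0.84 to 0.66, adjusted p = 0.870 by limma) and, without flox/flox replicate 2, -0.44 (95% interval -0.93 to 0.05, adjusted p = 0.199).

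Fcgr2b (chromosome 1, 170958617 to 170976547, minus strand) encodes the inhibitory Fc gamma receptor, which in liver takes up immune complexes and is also made by B cells and macrophages. Its values were 11.4, 4.10 and 7.76 FPKM in flox/flox and 5.39, 9.38 and 9.76 FPKM in HKO libraries, which overlapped. For this gene the log2 difference was 0.12 (95% interval -0.72 to 0.97) with all libraries and -0.22 (95% interval -0.91 to 0.46) without flox/flox replicate 2.

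Lyve1 (chromosome 7, 110850607 to 110863239, minus strand) encodes a hyaluronan-binding relative of CD44 that also marks lymphatic endothelium. It was the most variable member among HKO libraries, at 11.5, 17.3 and 4.76 FPKM, and 10.04, 2.28 and 4.12 FPKM in flox/flox libraries. HKO replicates 1 and 2 were above every flox/flox library, and HKO replicate 3 was not. The log2 fold change of 0.94 had a wide 95% interval of -0.38 to 2.26 (limma adjusted p = 0.277), and 0.54 without flox/flox replicate 2 one of -0.79 to 1.87. Of 5 listed lymphatic genes, Pdpn was at 0 in all 6 libraries, Mmrn1 did not exceed 0.32 FPKM and Ccl21a did not reach the filter. Reln and Prox1 were tested. Prox1, also made by hepatocytes, was the list's most abundant gene at 5.08 to 19.0 FPKM. The part of lymphatic endothelium in the Lyve1 values was not tested.

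Junction and growth factor receptor genes follow. Cdh5 (chromosome 8, 104101625 to 104144511, plus strand) encodes VE-cadherin, the adhesion molecule of endothelial adherens junctions. Flox/flox libraries read 8.44, 1.66 and 5.75 FPKM, and HKO libraries 9.93, 11.98 and 9.91 FPKM. Every HKO value was above every flox/flox value, which held for no other of the 10 genes, and 41.4% of all tested genes had groups without overlap in either direction (50.4% without flox/flox replicate 2). HKO exceeded flox/flox by 1.06 on the log2 scale (95% interval 0.03 to 2.10, SE 0.44), but the adjusted p of limma was 0.141. Leaving out flox/flox replicate 2 gave 0.53 (95% interval 0.08 to 0.99, SE 0.18, adjusted p = 0.124).

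The Cdh5 call depended on how libraries were scaled to each other. Rescaled to equal library totals, which moved the median of all tested genes from -0.06 to 0.26, Cdh5 was called (log2 1.41, limma adjusted p = 0.0432), against 21.2% of all tested genes. A common sum without the 20 highest genes called it as well (log2 1.41, limma adjusted p = 0.0429), against 23.3%. With equal totals and without flox/flox replicate 2, a combination chosen after seeing the data, it was called too (log2 0.93, limma adjusted p = 0.0248), against 11.7% of all tested genes. Over all alternatives its adjusted p ran from 0.0248 to 0.281.

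Pecam1 (chromosome 11, 106654217 to 106750628, minus strand) encodes the junctional adhesion molecule CD31, which platelets and leukocytes also carry. It was the least abundant member, at 4.04, 1.496 and 3.42 FPKM in flox/flox and 4.12, 5.45 and 3.65 FPKM in HKO libraries. All HKO values were above flox/flox replicates 2 and 3, and overlapped with replicate 1. Its log2 fold change was 0.49 (95% interval -0.17 to 1.15, limma adjusted p = 0.262) and 0.18 (95% interval -0.25 to 0.61) without flox/flox replicate 2.

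Kdr (chromosome 5, 75932827 to 75978458, minus strand) encodes VEGF receptor 2, the main signalling receptor for VEGF-A. Its level was 6.80, 1.75 and 5.28 FPKM in flox/flox and 4.30, 6.75 and 5.42 FPKM in HKO libraries. Its HKO values lay inside the flox/flox range. A log2 difference of 0.32 (95% interval -0.59 to 1.24) became -0.13 (95% interval -0.61 to 0.36) without flox/flox replicate 2.

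The secreted products showed the same library pattern. Bmp2 (chromosome 2, 133552159 to 133562885, plus strand) encodes an endothelial ligand that, with BMP6, drives hepcidin expression in hepatocytes. Levels were 9.75, 1.76 and 4.81 FPKM in flox/flox and 4.797, 5.89 and 6.27 FPKM in HKO libraries. The HKO values were tightly grouped inside a wide flox/flox range, giving a coefficient of variation of 13.5% in HKO and 74.2% in flox/flox libraries. With all libraries the log2 difference was 0.25 (95% interval -0.83 to 1.33) and -0.26 (95% interval -0.92 to 0.41) without flox/flox replicate 2.

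Dnase1l3 (chromosome 14, 7964533 to 7994573, minus strand) encodes a secreted nuclease that degrades DNA in chromatin. The 3 flox/flox libraries read 12.3, 3.50 and 9.54 FPKM and the HKO libraries 4.52, 7.64 and 9.06 FPKM. Every HKO library was below flox/flox replicates 1 and 3 and above replicate 2. It had the lowest fold change of the set, -0.13 (95% interval -1.15 to 0.88), and -0.60 (95% interval -1.27 to 0.08, adjusted p = 0.207 by limma) without flox/flox replicate 2.

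Oit3 (chromosome 10, 59422958 to 59441778, minus strand) encodes a protein with a zona pellucida domain made mainly in liver. Its values were 14.4, 4.65 and 11.1 FPKM in flox/flox and 11.6, 14.4 and 8.76 FPKM in HKO libraries. The groups overlapped, with flox/flox replicate 2 alone below all HKO libraries. The difference was 0.28 on the log2 scale (95% interval -0.62 to 1.18) and -0.14 (95% interval -0.69 to 0.41) without flox/flox replicate 2.

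**Figure D2:**
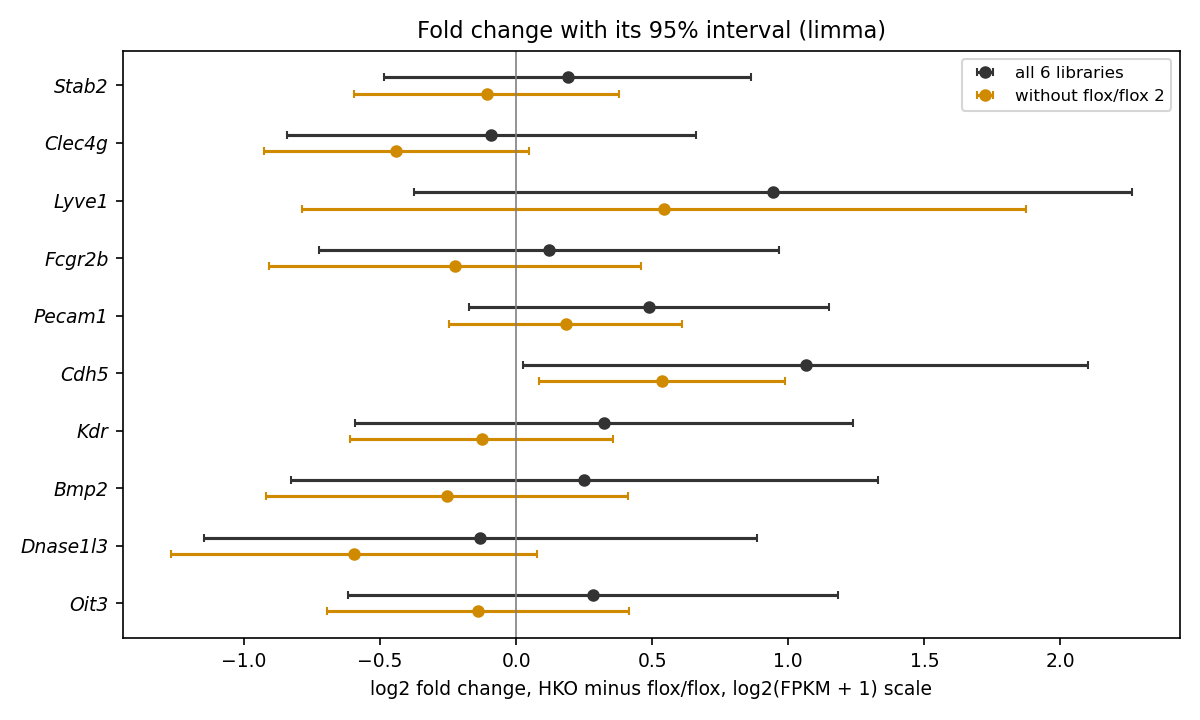
Log2 fold change (HKO minus flox/flox, x axis, log2(FPKM + 1) scale) of each gene with its 95% interval from limma, with all 6 libraries (black) and without flox/flox replicate 2 (orange). Removing that library moves every point to the left, and 5 of the 10 change sign. Cdh5 is the gene whose interval lies above 0 in both fits, at 1.06 and 0.53.

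Among themselves the 10 genes shared an order of control libraries: replicate 2 was below replicate 3 and replicate 3 below replicate 1 in 10 of 10. The share of all tested genes with this order was not computed. All 10 were read from the same libraries, so they are not separate observations of it. The coefficient of variation among flox/flox libraries was 39.4 to 74.2% (median 51.3%), beside a median of 16.3% over all tested genes. Among HKO libraries it was 11.2 to 56.2% (median 21.8%), beside 12.8% over all tested genes, and it was smaller than in flox/flox for all 10. Highest values were less uniform: 6 genes peaked in flox/flox replicate 1 and 4 in HKO replicate 2. Rebuilt reads per gene ran from 96 (Bmp2 in flox/flox replicate 2) to 1697 (Stab2), with at least 100 in every library for 9 of the 10. Summed over the 10 genes, FPKM came to 110.0, 34.8 and 77.8 in flox/flox and 74.8, 103.7 and 83.5 in HKO libraries.

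Levels per gene length, averaged over 6 libraries, put Clec4g first at 15.7 ± 4.64 FPKM (SD), then Oit3 at 10.8 ± 3.71 FPKM. Lyve1, Stab2, Fcgr2b, Cdh5 and Dnase1l3 followed at 7.76 to 8.33 FPKM, an interval smaller than the SD of any of them. Bmp2 and Kdr stood at 5.54 ± 2.60 and 5.05 ± 1.88 FPKM, which do not differ beyond their spread. Pecam1 was last at 3.70 ± 1.29 FPKM, and below Kdr in 6 of 6 libraries.

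General endothelial genes moved with the set across libraries. Of 26 listed genes, such as those of the receptors Tie1 and Tek and of the junction protein Esam, 21 were tested. Limma called 0 of them, against 12.8% of all tested genes. The median log2 fold change of the 21 was 0.20, and -0.04 without flox/flox replicate 2. In 18 of these 21 flox/flox replicate 2 was the lowest of 6 libraries (17.6% of all tested genes). Eng, a TGF-beta co-receptor of endothelium and the list's most abundant gene, stood at 21.4, 11.4 and 19.7 FPKM in flox/flox and 19.3, 22.3 and 16.7 FPKM in HKO libraries (limma adjusted p = 0.639, and adjusted p = 0.757 without flox/flox replicate 2). Rescaled to equal library totals, 4 of the 21 were called, all higher, where 21.2% of all tested genes were called and 90.9% of those were higher.

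Expressing each member relative to the mean of these 21 genes in the same library makes the values largely independent of the scaling between libraries. On this scale the range over the flox/flox libraries narrowed for 10 of 10 genes, from a median of 1.48 to a median of 0.57 (log2), while flox/flox replicate 2 was still the lowest library for 6 of the 10. The mean of the 21 genes was itself 2.39, 1.48 and 2.06 in flox/flox libraries, the order that all 10 members shared. Subtracting this 1 set of values had to narrow the ranges, so the 10 are not separate observations. Stab2 varied least, with log2 values of 1.21, 0.96 and 0.998 in flox/flox and 0.94, 1.02 and 1.12 in HKO libraries, a difference of -0.03 (two-sided exact permutation p = 0.7, where 3 against 3 allow no p below 0.1). Cdh5 stood at 0.85, -0.07 and 0.70 in flox/flox and at 1.35, 1.37 and 1.30 in HKO libraries, a difference of 0.84 and the 1 member without overlap (exact permutation p = 0.1). With the deposited scaling 41.4% of all tested genes had groups without overlap, and the share on this relative scale was not computed. The other 8 differed by -0.35 (Dnase1l3) to 0.72 (Lyve1), with exact permutation p of 0.2 to 1. Without flox/flox replicate 2, Cdh5 differed by 0.56, and the others by -0.57 (Dnase1l3) to 0.57 (Lyve1). Adjusted over 10 genes, none could pass.

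**Figure D3:**
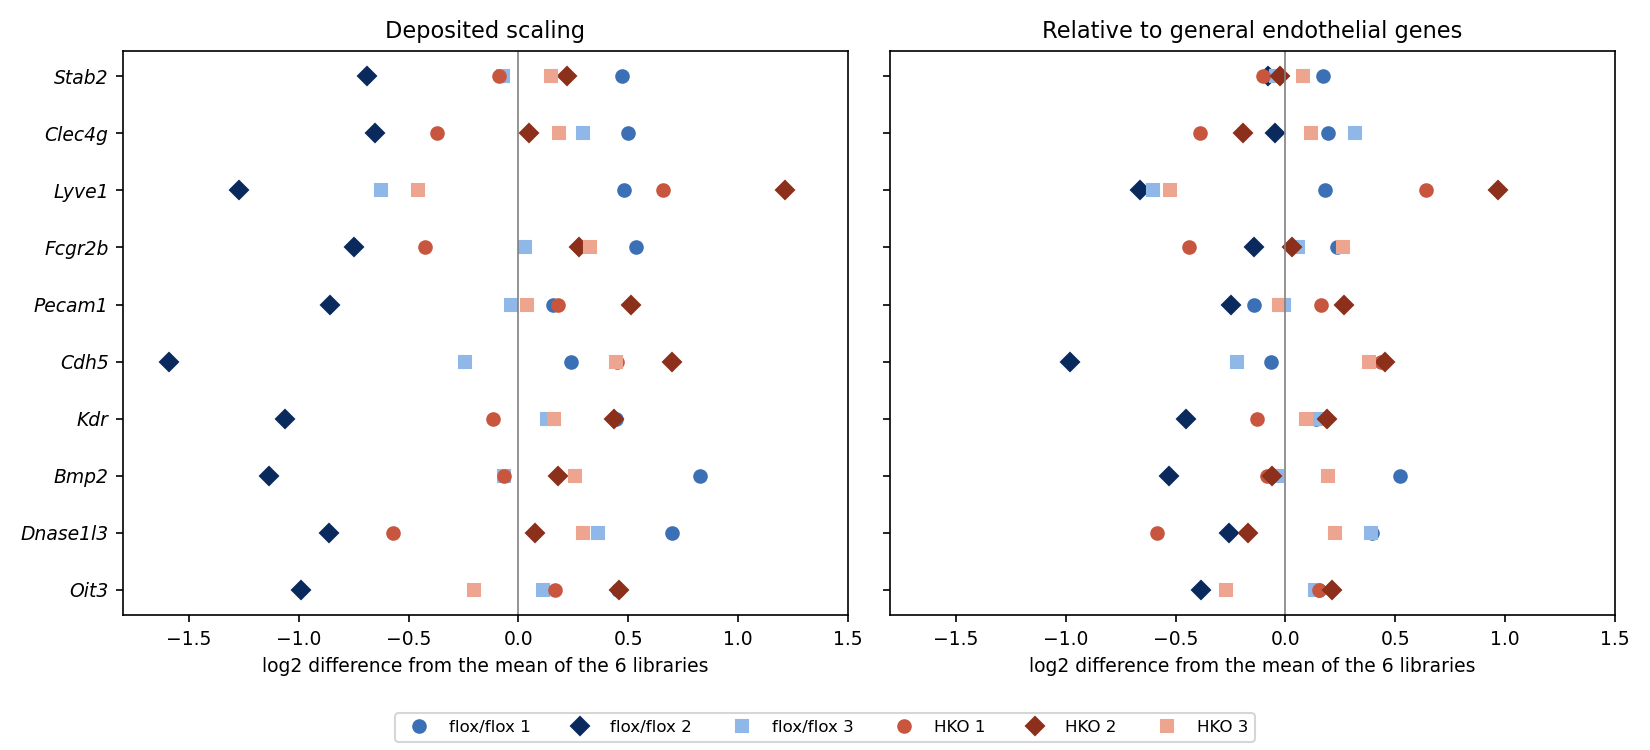
Each gene's log2 level as a difference from its own mean over the 6 libraries (x axis), with the deposited scaling on the left and relative to 21 general endothelial genes on the right. The dark blue diamonds of flox/flox replicate 2 lie far left in the first panel and nearer to the other libraries in the second, still lowest for 6 genes there, where the 3 HKO points of Cdh5 stay right of its flox/flox points.

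Within a library, Cdh5 could also be set against the other junction and receptor genes. Log2 Cdh5 minus Kdr was between -0.05 and 0.28 for flox/flox and between 0.74 and 1.05 for HKO, and Cdh5 minus Pecam1 was 0.09 to 0.90 and 1.01 to 1.23. In both pairs the groups did not overlap (two-sided exact permutation p = 0.1 each). After Benjamini-Hochberg adjustment over the 9 gene pairs compared, both p were 0.15, and the pairs were chosen after the values were seen. Cdh5 had a higher log2 fold change (1.06) than Kdr (0.32) and Pecam1 (0.49). Both pairs therefore had to be higher in HKO on average, and they are not separate evidence on Cdh5. Mean differences of the pairs given further on follow from the fold changes of their genes in the same way. The share of all gene pairs without overlap was not computed. Lyve1 minus Stab2 overlapped between the groups (exact permutation p = 0.4).

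Other receptors and binding partners of the same pathways are described by list. Beside each count stand the 12.8% of all tested genes that limma called (5.95% higher and 6.86% lower in HKO). Of 9 further scavenger receptor genes 8 were tested, 1 was higher and none lower in HKO (median log2 fold change 0.17, 0.11 without flox/flox replicate 2). The riser was Cd36, a fatty acid and lipoprotein receptor that macrophages and hepatocytes also make, at 7.81, 3.16 and 4.98 FPKM in flox/flox and 20.6, 21.3 and 17.1 FPKM in HKO libraries. Its log2 fold change was 1.77 (SE 0.27, limma adjusted p = 0.0187, and adjusted p = 0.0390 without flox/flox replicate 2). Log2 Cd36 minus Stab2 was between -0.48 and -0.38 for flox/flox and between 0.90 and 1.39 for HKO (exact permutation p = 0.1, adjusted 0.15). Stab1, the stabilin-1 gene and closest relative of Stab2, stood at 9.04, 4.53 and 7.04 FPKM in flox/flox and 6.65, 8.81 and 7.14 FPKM in HKO libraries and was not called.

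Of 5 other genes of Fc gamma receptors and their partners 2 rose and none fell, against 12.8% of all tested genes called. The list's median was 1.19. Without flox/flox replicate 2 it was 0.92 and the count was also 2, against 3.32% of all tested genes. Fcgr1, the high-affinity activating receptor, rose from 0.86 ± 0.27 to 3.21 ± 0.19 FPKM (limma adjusted p = 0.0137), and Fcgr3, a low-affinity activating receptor, from 3.11 ± 1.11 to 9.50 ± 1.62 FPKM (limma adjusted p = 0.0210). Log2 Fcgr3 minus Fcgr2b was between -1.29 and -0.81 for flox/flox and between -0.20 and 0.61 for HKO, without overlap (exact permutation p = 0.1, adjusted 0.15). Both activating receptors are known from macrophages, whose markers are given further on.

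For hyaluronan, against 12.8% of all tested genes called, 1 of 5 tested genes of synthesis, binding and breakdown rose and none fell. It was Cd44, a hyaluronan receptor of leukocytes and other cells, at 1.09, 0.31 and 0.94 FPKM in flox/flox and 3.02, 3.00 and 2.86 FPKM in HKO libraries (limma adjusted p = 0.0205, and adjusted p = 0.0369 without flox/flox replicate 2). Log2 Cd44 minus Lyve1 overlapped between the groups (exact permutation p = 0.9). The list's median was 0.34, and 0.14 without flox/flox replicate 2.

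On the VEGF side, the ligand differed while Kdr was not called. Of 6 tested ligand and receptor genes 1 fell and none rose, against 12.8% of all tested genes called. The list median was -0.04, and -0.13 without flox/flox replicate 2. Vegfa, which hepatocytes make in quantity, fell from 58.1, 53.7 and 60.1 FPKM in flox/flox to 35.5, 31.9 and 23.5 FPKM in HKO libraries (log2 -0.92, SE 0.17, limma adjusted p = 0.0251). Without flox/flox replicate 2 the difference was as large (log2 -0.96) with a limma adjusted p of 0.0563. With equal library totals it was smaller (log2 -0.52, limma adjusted p = 0.0507). Log2 Vegfa minus Kdr was between 2.92 and 4.32 for flox/flox and between 1.93 and 2.78 for HKO, without overlap (exact permutation p = 0.1, adjusted 0.15).

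Bmp2 acts in the BMP to hepcidin pathway, of which 18 of 18 listed genes were tested. Of these 1 fell and none rose (median 0.16, and 0.08 without flox/flox replicate 2), against 12.8% of all tested genes called. Tfr2, the transferrin receptor 2 gene of hepatocytes, fell from 137 ± 16.9 to 82.7 ± 6.17 FPKM (log2 -0.71, limma adjusted p = 0.0283). Without flox/flox replicate 2 it was -0.74 (limma adjusted p = 0.0639), and with equal library totals -0.31 (limma adjusted p = 0.0847). The hepcidin gene Hamp was not called (log2 0.15, limma adjusted p = 0.839). Its relative Hamp2 had the list's largest fold change, 1.62 (limma adjusted p = 0.0505), and 1.27 without flox/flox replicate 2 (limma adjusted p = 0.0990). Hamp2 was called higher in 7 of 17 alternatives, and Tfr2 lower in 6 of 17. Under equal totals 8 genes of the list were called, all higher, beside the 21.2% of all tested genes called there, 90.9% of them higher. Log2 Bmp6 minus Bmp2, the balance of the 2 endothelial ligands, was between -1.75 and -0.80 for flox/flox and between -1.70 and -1.20 for HKO, with overlap (exact permutation p = 1).

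Against 12.8% of all tested genes called, 1 of 7 tested angiocrine ligands rose and none fell (median 0.23, and 0.06 without flox/flox replicate 2). It was Hgf, the hepatocyte growth factor gene, which stellate cells also make, from 1.13, 1.08 and 1.15 FPKM in flox/flox to 1.93, 2.74 and 2.47 FPKM in HKO libraries (limma adjusted p = 0.0283, and adjusted p = 0.0682 without flox/flox replicate 2). None of 5 tested genes of continuous or capillarized endothelium was called (median 0.64, and 0.47 without flox/flox replicate 2), and Aqp1, a water channel and its most abundant gene, stood at 64.3, 13.7 and 34.5 FPKM in flox/flox and 26.8, 36.7 and 42.1 FPKM in HKO libraries. Plvap, encoding the diaphragm protein of fenestrae and caveolae, read 26.1, 16.1 and 20.7 FPKM in flox/flox and 32.0, 32.4 and 33.4 FPKM in HKO libraries, without overlap (log2 0.64, limma adjusted p = 0.0581). It was called in 7 of 17 alternatives, among them quantile normalization (limma adjusted p = 0.0328), voom (adjusted p = 0.0481) and equal library totals (adjusted p = 0.00913). Values of Ly6a (log2 1.85, limma adjusted p = 0.0667) and Lamb1 (log2 0.41, limma adjusted p = 0.0868) did not overlap between the groups either, as held for 41.4% of all tested genes. Those of Esm1 overlapped (log2 1.35, limma adjusted p = 0.199). Esm1 read 0.32, 0.56 and 0.16 FPKM in flox/flox and 5.74, 4.44 and 0.09 FPKM in HKO libraries. The list had 3 of 5 called with equal totals, 2 with voom and 1 with quantile normalization, all higher. Over all tested genes 21.2% were called with equal totals (90.9% of them higher) and 14.2% with voom. Quantile normalization called 650 of all tested genes higher and 386 lower. Of the markers of continuous endothelium, Cd34 and Vwf did not reach the filter of 1 FPKM. None of 3 tested DNase genes besides Dnase1l3 was called, the most abundant being Dnase2b (limma adjusted p = 0.640).

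Markers of other cell types moved across the libraries too. All 12 Kupffer cell genes were lowest in flox/flox replicate 2, as the 10 endothelial genes were, and their summed level was 94.1 to 353 FPKM in flox/flox and 456 to 599 FPKM in HKO libraries. Of these, 4 rose and none fell (median 1.33), led by the scavenger receptor gene Marco (log2 2.46), Cd68 (log2 1.34) and the growth factor receptor gene Csf1r (log2 1.33). Without flox/flox replicate 2 the median was 0.88, with Marco at 2.01, Cd68 at 1.19 and Csf1r at 0.95, and none of the 12 was called, where calls over all tested genes also fell from 12.8% to 3.32%. With equal library totals all 12 were called, all higher, where 21.2% of all tested genes were called and 90.9% of those were higher. Of recruited macrophage and monocyte genes 2 of 8, Lyz2 and Cd9, were tested. Cd9, a tetraspanin gene, rose from 7.26 ± 2.69 to 16.1 ± 1.25 FPKM (log2 1.10, limma adjusted p = 0.0344, and log2 0.86 with adjusted p = 0.0552 without flox/flox replicate 2). Summed levels of the list were 19.7 to 73.4 FPKM in flox/flox and 105 to 111 FPKM in HKO libraries. The untested genes had means under 1 FPKM, so these sums are mostly Lyz2 and describe little beyond that gene. Fcgr2b, Fcgr1, Fcgr3, Cd36 and Cd44 are shared with such cells, and the part of these cells in their values was not tested.

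Stellate cell genes rose in 3 of 12, against 12.8% of all tested genes called. They were Col3a1 (log2 1.52), Col1a1 (log2 1.42) and the retinoid-storing enzyme gene Lrat (log2 0.81). Summed levels of the list were 93.2 to 127 FPKM in flox/flox and 126 to 179 FPKM in HKO libraries. The list's median was 0.51. Without flox/flox replicate 2 it was 0.41 and 2 were called, against 3.32% of all tested genes, with Lrat at 0.65 (limma adjusted p = 0.0756). With equal library totals 9 were called, all higher, beside 21.2% of all tested genes, 90.9% of them higher. Cholangiocyte genes had 2 tested of 6, of which Sox9 rose (limma adjusted p = 0.0165, and adjusted p = 0.0369 without flox/flox replicate 2), with sums of 19.2 to 29.1 and 27.3 to 57.4 FPKM. Of hepatocyte genes 0 of 8 were called. Their median was -0.67, -0.90 without flox/flox replicate 2, -0.27 with equal library totals and 0.03 under quantile normalization, so its sign depended on the scaling. Alb, the albumin gene, read 50179, 29019 and 30803 FPKM in flox/flox and 24762, 27384 and 9905 FPKM in HKO libraries. Hepatocyte sums were 47811 to 78226 FPKM in flox/flox and 23628 to 43337 FPKM in HKO libraries. The hepatocyte sum of flox/flox replicate 2 was the lowest of its group.

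Other cells can express single members, and their part was not tested. None of 6 B cell genes reached the filter, with summed levels of 0.39 to 2.44 FPKM in flox/flox and 1.53 to 3.23 FPKM in HKO libraries. Of 5 platelet genes 1 was tested, Pf4, and it was not called (0.54 to 1.41 FPKM in flox/flox and 0.93 to 1.86 FPKM in HKO libraries). These levels do not measure the part of B cells in Fcgr2b or of platelets in Pecam1. Lymphatic endothelial genes had 2 tested of 5, Reln and Prox1, neither called, and their sums were 7.97 to 18.1 FPKM in flox/flox and 14.9 to 23.0 FPKM in HKO libraries.

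**Figure D4:**
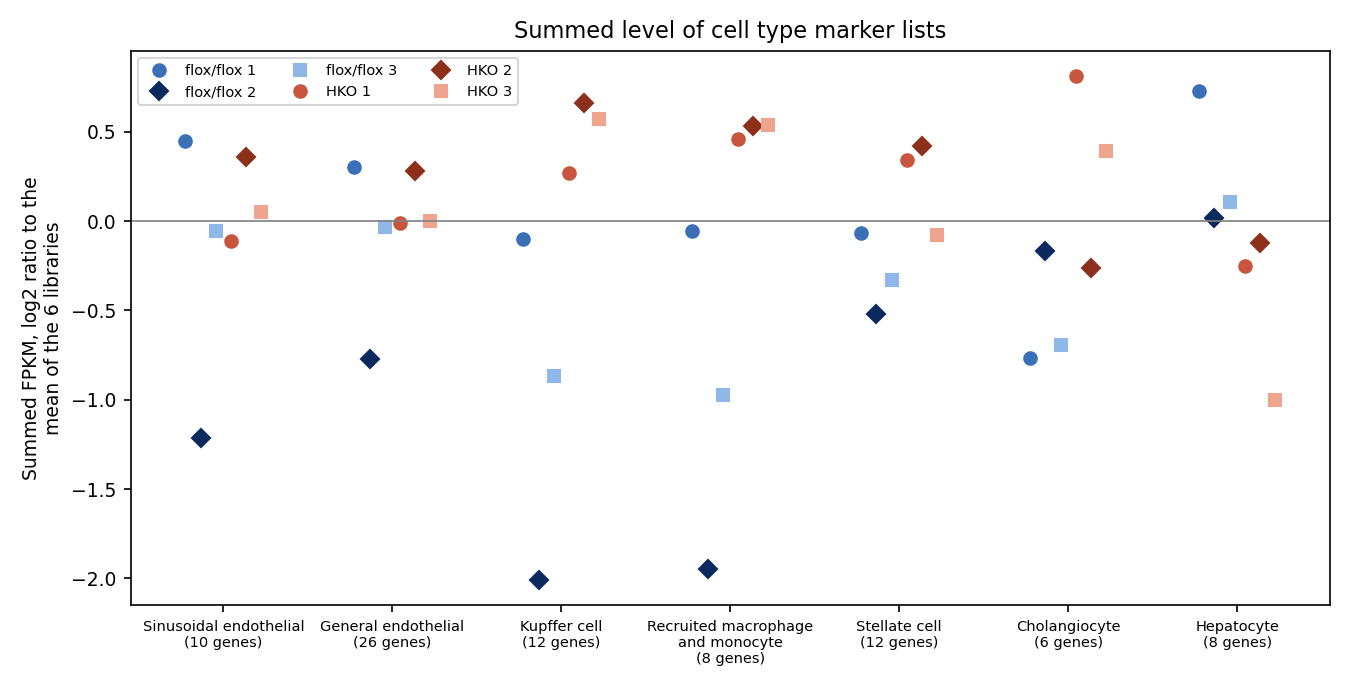
Summed FPKM of each cell type marker list in the 6 libraries, as a log2 ratio to the mean of the 6 (y axis). Flox/flox replicate 2 is the lowest library for the endothelial, Kupffer cell, macrophage and stellate cell lists, and HKO replicate 3 for the hepatocyte list. With the deposited scaling the groups are separated without overlap in the Kupffer cell, recruited macrophage and hepatocyte lists. Among single tested genes 41.4% had groups without overlap on that scaling. Overlap of the sums under other scalings was not computed. Of the 8 recruited macrophage genes 2, Lyz2 and Cd9, reached a mean of 1 FPKM, and the sum is mostly Lyz2.

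The genes whose levels most resembled the set were sought among 5234 other protein-coding genes with a mean of at least 5 FPKM, by Pearson's r over the 6 libraries with the mean of the 10 standardised members. As a description over 6 points that share library and scaling, Cavin2, encoding a caveolar coat protein, came first (r = 0.977, Spearman's rho = 0.829), at 7.47, 2.73 and 6.09 FPKM in flox/flox and 6.34, 7.39 and 6.29 FPKM in HKO libraries. Smagp (r = 0.975), Acnat1 (r = 0.966), Lcp1 (r = 0.961) and Ptpn12 (r = 0.945) followed. Pearson's r does not weigh the size of differences. Lcp1 was nearly flat, at 11.6, 10.3 and 11.1 FPKM in flox/flox and 11.2, 11.8 and 11.1 FPKM in HKO libraries. In all, 34 candidates had r of at least 0.9.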

How the data were processed

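Liver mRNA, purified on oligo-dT beads, was sequenced from both ends in 3 flox/flox and 3 HKO libraries, per the labels. The submitters' processing notes name alignment by HISAT2 2.0.5 against GRCm38.p6 and counting by featureCounts 1.5.0-p3. The values deposited by the authors are FPKM. The sources used here give neither strand nor the handling of shared reads.

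In every library 100% of FPKM, times gene length, were whole multiples of 1 step within 0.01 read, giving 16529358 to 18556076 reads per library. The FPKM denominator was proportional to a median-of-ratios size factor. This factor was 0.858 to 0.892 for flox/flox and 1.06 to 1.30 for HKO, so scaling by library totals differs with genotype. Groups came from the sample titles. FPKM are not counts, so limma 3.58.1 (R 4.3.3) was fitted to log2(FPKM + 1) of 11086 genes, with an intensity trend. The threshold was a Benjamini-Hochberg adjusted p under 0.05. The test was tried on simulated data. Exact permutation tests and figures used Python 3.11.15, numpy 2.4.6, pandas 2.3.3, scipy 1.17.1 and matplotlib 3.10.9.

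The members and lists were chosen with earlier results of these data known. Named were all members, from each list up to 4 called genes (3 for cell types) with the largest change or else the most abundant gene, and the 5 genes most like the set. Others are Plvap, Ly6a, Lamb1, Esm1, Stab1, Bmp6, Hamp, Hamp2, Lyz2, Tie1, Tek, Esam, Cd34, Vwf, Pdpn, Mmrn1, Ccl21a and Reln, chosen after their values were seen. Member positions were the same in GENCODE M21. Antisense genes overlap Stab2, Clec4g, Fcgr2b and Cdh5, with at most 11 reads per library. The labels do not say whether replicate numbers pair the libraries. Same-numbered libraries' deviations from group means had correlations of -0.003, -0.10 and -0.07. With 3 libraries per group these cannot settle whether the libraries were paired.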

Additional observations from a re-analysis of the deposited data

How the results depend on the processing

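Of the 10 members, 0 were called lower in all 17 alternatives. The count of members called higher was 0 as reported and 1 (Cdh5) with equal library totals, with a sum equalised after dropping the 20 highest genes (limma adjusted p = 0.0429), and with equal totals combined with leaving out flox/flox replicate 2, the last chosen after seeing the data. Leaving out any 1 library left it at 0. Signs of member fold changes turned in 5 genes without flox/flox replicate 2, in 2 genes each without flox/flox replicates 1 or 3, without HKO replicate 1, with equal totals and with a common sum, and in 1 each under quantile normalization and without HKO replicate 3. None of these was called.

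Across all genes, 660 were higher and 761 lower in HKO (46.4% higher). The counts were 2132 and 213 (90.9% higher) with equal totals, 2364 and 221 (91.5%) with a common sum, and 1177 and 123 with equal totals without flox/flox replicate 2. No filter gave 295 and 215, and a mean of at least 5 FPKM 265 and 705. Quantile normalization gave 650 and 386 (62.7%), and median of ratios 750 and 495 (60.2%). Leaving out 1 library gave 17 to 718 higher and 13 to 736 lower, and counts shrank by over 1.5 times without flox/flox replicate 2 or 3 or any of the HKO libraries. With the replicate number as a block, 108 were higher and 91 lower, and the replicate block changed no member's call. The cause of these shifts was not tested. Fewer libraries enter each fit that leaves one out.

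Cdh5 has the largest difference of the 10 genes, so with Cdh5 alone as the reference in place of the 21 endothelial genes the other 9 had to come out lower in HKO, and these values show nothing further: -0.87 (Stab2), -1.15 (Clec4g), -0.12 (Lyve1), -0.94 (Fcgr2b), -0.58 (Pecam1), -0.74 (Kdr), -0.81 (Bmp2), -1.20 (Dnase1l3) and -0.78 (Oit3) on the log2 scale. With 3 libraries per group, standard errors of 0.28 to 0.55 bound what could be seen.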
